A study of Mus musculus with 12 samples.

Results

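A set of 10 genes of the amino acid stress response and of mitochondrial one-carbon metabolism was examined in adipocytes made in culture and in mouse fat tissue. They are Atf3, Atf4, Ddit3, Trib3, Asns, Psat1, Shmt2, Mthfd2, Aldh1l2 and Slc7a5, 10 of the 19938 genes measured. The list was proposed after Atf3, Aldh1l2 and Slc7a5 had been seen to be high in 3T3-L1 adipocytes in these same arrays. The levels of the 10 genes in 3T3-L1 adipocytes, and every difference taken against that group, are therefore given as a description and without a test. Each of the 10 genes was read by 1 probe set with a single gene symbol.

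RNA was measured on 12 Affymetrix arrays, 3 biological replicates in each of 4 groups. The first group was adipocytes differentiated from 3T3-L1, a clonal preadipocyte line of mouse embryo origin. The second was adipocytes differentiated from mouse embryonic stem (ES) cells, and the third was adipocytes differentiated from primary mouse embryonic fibroblasts (PMEF). The fourth was fat tissue taken from healthy wild-type mice and labelled eWAT (epididymal white adipose tissue). The sources used here do not give culture media, days of differentiation, the strain of the cells or the age of the mice, so that cell origin and culture conditions cannot be told apart between the groups. All values are log2 intensities as the authors deposited them, so a difference of 1 is a 2-fold change.

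Cells that run short of an amino acid, or whose endoplasmic reticulum is overloaded with unfolded protein, phosphorylate the translation initiation factor eIF2 and thereby favour translation of the transcription factor Atf4. Atf4 then switches on genes for amino acid import, for asparagine and serine synthesis and for the mitochondrial arm of folate metabolism, which carries single carbon units from serine to formate for purine and methyl group synthesis. Atf3, Ddit3 and Trib3 are further products of this response and modify or limit it. The mRNA of Atf4 is a limited guide to its protein, because the main control is at translation.

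Markers of cell types differed between the cultures and eWAT in both directions. Of 11 adipocyte markers 0 rose and 8 fell in 3T3-L1 adipocytes relative to eWAT. In ES adipocytes 1 rose and 6 fell, and in PMEF adipocytes 0 rose and 10 fell. Their medians were -0.95, -0.23 and -0.76, and the lowest values, those of Lep, -5.92, -3.86 and -4.69. Over all genes 30.8% rose and 22.5% fell in 3T3-L1, 28.8% and 20.9% in ES, and 24.7% and 21.6% in PMEF adipocytes. Adipoq, the adipocyte hormone adiponectin, read 11.44 to 11.60 on the 3T3-L1 arrays, 12.17 to 12.26 on the ES arrays, 11.94 to 12.08 on the PMEF arrays and 12.42 to 12.47 on the eWAT arrays. The mean of 10 macrophage markers was 5.33 to 5.44 in 3T3-L1, 5.07 to 5.17 in ES and 5.85 to 5.92 in PMEF adipocytes, against at least 8.99 in eWAT. The mean of 8 endothelial markers was 5.16 to 5.23, 5.28 to 5.39 and 5.45 to 5.51 in those cultures, against 9.08 to 9.39 in eWAT. All 8 endothelial markers were lower than in eWAT in each of the 3 kinds of culture, as were 10 of 10 macrophage markers in ES and PMEF adipocytes and 9 of 10 in 3T3-L1 adipocytes. The tenth, Cd68, a lysosomal protein named here after its values were seen, was 0.93 ± 0.19 higher in 3T3-L1 adipocytes, at 10.30 to 10.58 against 8.89 to 9.91 in eWAT. Fibroblast and progenitor markers went up in PMEF adipocytes relative to eWAT, with 7 of 8 called and a median of 1.40, and Pdgfra, a receptor of progenitors, among them at 1.68 ± 0.13. In ES adipocytes 1 of these 8 rose and 5 fell, and in 3T3-L1 adipocytes all 8 fell. All 6 mesothelial markers rose relative to eWAT in both ES and PMEF adipocytes, with medians of 1.72 and 2.21, and 2 rose and 1 fell in 3T3-L1 adipocytes. The part of these cells in the differences below was not tested. In such bulk RNA, fewer cells of a type and less RNA per cell cannot be told apart.

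The transcription factors and the regulator Trib3 were highest in 3T3-L1 adipocytes. Atf3, a stress-induced repressor and activator of the CREB family, read 11.46, 11.34 and 11.45 on the 3T3-L1 arrays, 7.70, 7.63 and 7.67 on the ES arrays, 6.49, 6.63 and 6.51 on the PMEF arrays and 6.72, 7.33 and 6.99 on the eWAT arrays. The 3T3-L1 arrays stood far above all others, and the other groups lay within a narrow band without overlapping. Atf4 read 9.85, 9.89 and 9.91 in 3T3-L1, 8.91, 8.69 and 8.88 in ES, 8.27, 8.24 and 8.10 in PMEF and 7.41, 7.48 and 7.53 in eWAT. Ddit3, which encodes the stress factor CHOP, read 11.20, 11.22 and 11.15 in 3T3-L1, 9.67, 9.81 and 9.60 in ES, 8.17, 8.04 and 7.97 in PMEF and 7.15, 7.06 and 7.11 in eWAT. Trib3, a pseudokinase that dampens Atf4 and Akt signalling, read 9.92, 9.64 and 9.92 in 3T3-L1, 8.38, 7.99 and 8.05 in ES, 6.50, 6.39 and 6.56 in PMEF and 5.89, 6.18 and 5.72 in eWAT. For Atf4, Ddit3 and Trib3 the groups descended in the order 3T3-L1, ES, PMEF, eWAT, with no overlap between neighbouring groups.

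The promoters of the members were searched for the element that Atf4 and its partners are known to bind, because Trib3 and Asns are textbook targets of that factor. RefSeq promoter windows of GRCm38.p6, running from 250 bases before to 50 bases after the start of a gene, were on hand for 8 of the 10 members, with Aldh1l2 and Slc7a5 the exceptions. The amino acid response element was searched as TGATGNAA on both strands and was found in 3 of the 8 members, against 3.97% of 32851 promoters of the same length. The list was made of known genes of this pathway, so nothing about these arrays is read from that count. The cyclic AMP response element TGACGTCA, which reads the same on both strands, was found in none of the 8, so that no match overlapped the first motif, and in 1.79% of all promoters. Only these exact letters were searched, so that a variant such as TTACGTCA, present in the Atf3 window below, was not counted. The endoplasmic reticulum stress element was also found in none of the 8, against 0.119% of all promoters. The 3 windows with a match are shown 5′ to 3′ on the strand of the gene, with the matched letters in capitals. They lie at chr1:191183284-191183583 for Atf3, at chr2:152344011-152344310 for Trib3 and at chr6:7693160-7693459 for Asns, all on the minus strand.
Atf3: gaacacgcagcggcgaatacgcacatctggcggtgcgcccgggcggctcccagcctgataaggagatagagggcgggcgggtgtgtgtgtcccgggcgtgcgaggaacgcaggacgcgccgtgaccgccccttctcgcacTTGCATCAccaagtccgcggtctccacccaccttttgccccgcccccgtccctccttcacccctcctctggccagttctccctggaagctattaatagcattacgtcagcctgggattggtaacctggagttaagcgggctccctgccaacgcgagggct
Trib3: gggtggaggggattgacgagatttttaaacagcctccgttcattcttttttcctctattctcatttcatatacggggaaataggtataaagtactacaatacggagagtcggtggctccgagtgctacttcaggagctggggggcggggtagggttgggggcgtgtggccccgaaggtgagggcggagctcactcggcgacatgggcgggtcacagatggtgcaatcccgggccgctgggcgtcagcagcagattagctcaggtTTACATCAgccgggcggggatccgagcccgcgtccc
Asns: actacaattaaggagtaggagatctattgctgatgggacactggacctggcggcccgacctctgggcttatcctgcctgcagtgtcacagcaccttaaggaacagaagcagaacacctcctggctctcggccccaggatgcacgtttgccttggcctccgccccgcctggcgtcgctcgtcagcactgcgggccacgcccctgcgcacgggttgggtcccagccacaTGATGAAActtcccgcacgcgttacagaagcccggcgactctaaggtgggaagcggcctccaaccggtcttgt
The match began 110 bases before the start in Atf3, 14 bases after it in Trib3 and 23 bases before it in Asns. In Atf3 and Trib3 the element ran on the opposite strand, so that its reverse complement is what the capitals show. A match of letters is a description of the window and not a measured binding site.

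The synthetic enzymes had their means in the same order over the groups. Asns, asparagine synthetase, read 12.12, 12.07 and 12.09 in 3T3-L1, 11.25, 11.21 and 11.22 in ES, 10.31, 10.34 and 10.38 in PMEF and 10.37, 10.26 and 10.25 in eWAT. Its PMEF and eWAT arrays overlapped. Over the 10 genes, with the groups of each ordered by their means, 29 of 30 neighbouring pairs of groups had no overlap, against 40.6% of such pairs over all genes, and 10 of the 30 involve the 3T3-L1 arrays that chose the list. Psat1, the aminotransferase of the middle step of serine synthesis, read 11.40, 11.43 and 11.46 in 3T3-L1, 11.07, 11.09 and 10.99 in ES, 9.82, 9.81 and 9.94 in PMEF and 9.46, 9.26 and 9.34 in eWAT. For Psat1 the 3T3-L1 and ES arrays were close, with 0.31 between the nearest arrays of the 2 groups.

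The 3 mitochondrial folate enzymes differed more widely. Shmt2, which takes a carbon unit from serine in mitochondria, read 9.66, 9.72 and 9.80 in 3T3-L1, 9.38, 9.46 and 9.29 in ES, 7.75, 7.60 and 7.36 in PMEF and 6.93, 7.10 and 6.8 in eWAT. Mthfd2, the dehydrogenase and cyclohydrolase of the next step, read 11.05, 10.85 and 10.62 in 3T3-L1, 9.55, 9.90 and 9.55 in ES, 8.04, 7.49 and 8.02 in PMEF and 6.18, 6.67 and 6.66 in eWAT. Aldh1l2, which oxidises formyl-tetrahydrofolate to carbon dioxide in mitochondria and makes NADPH, read 10.13, 10.10 and 10.17 in 3T3-L1, 8.78, 8.86 and 8.70 in ES, 7.11, 7.11 and 6.98 in PMEF and 4.95, 5.25 and 5.17 in eWAT. The groups of all 3 genes stood apart in the same descending order. The eWAT arrays of Aldh1l2 lay below 5.36, a limit under which the dimmest genes lie. Without detection calls, the size of a difference is uncertain there.

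The transporter of the list showed the same descent. Slc7a5, the light chain of the exchanger that imports leucine and other large neutral amino acids, read 11.06, 11.08 and 11.11 in 3T3-L1, 9.73, 9.77 and 9.72 in ES, 8.17, 8.25 and 8.20 in PMEF and 5.93, 6.72 and 6.85 in eWAT. The first eWAT array was lower than the other two. That array also had the lowest mean of the macrophage markers, 8.99 against at least 9.66 on the other eWAT arrays, and whether the 2 values are linked was not tested. Without it, Slc7a5 was 4.30 higher in 3T3-L1 adipocytes than in eWAT, against 4.59 with all arrays, and it was 2.95 instead of 3.24 higher in ES adipocytes and 1.42 instead of 1.70 higher in PMEF adipocytes.

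**Figure D1:**
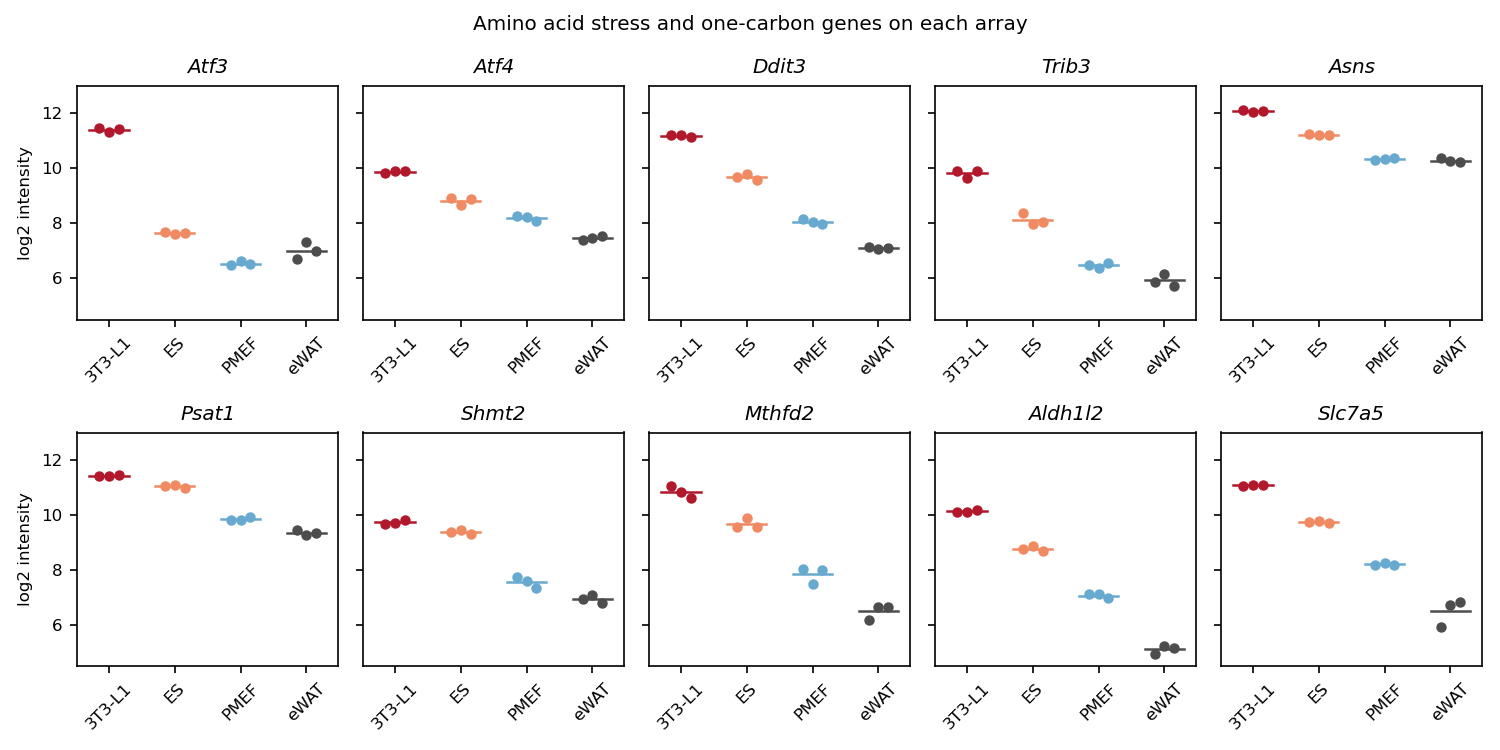
Log2 intensity of each of the 10 genes (1 panel a gene) on every array, with the groups 3T3-L1, ES, PMEF and eWAT from left to right. Points are arrays (3 per group) and lines are group means. All 10 genes are highest in 3T3-L1, and 9 descend to eWAT, while Atf3 is lowest in PMEF.

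As a description of 3T3-L1 adipocytes, all 10 genes had every 3T3-L1 array above every array of the other groups. Over all genes this held for 17.1%, and nothing is read from the contrast because the list was picked from it. The gap between the lowest 3T3-L1 array and the highest other array ran from 0.20 for Shmt2 to 3.64 for Atf3. Against eWAT the differences ran from 1.80 for Asns, which is 3.49-fold, to 5.01 for Aldh1l2, which is 32.2-fold, with a median of 3.99 against 0.05 over all genes. Against PMEF adipocytes they ran from 1.58 for Psat1 to 4.87 for Atf3, with a median of 2.94 against -0.01 over all genes. Against ES adipocytes all 10 were smaller than against either other group, from 0.35 for Shmt2 to 3.75 for Atf3, with a median of 1.26 against 0.02. Atf3 stood out within the list, being 13.5-fold higher in 3T3-L1 than in ES adipocytes while the remaining 9 genes were 1.27-fold to 3.22-fold higher.

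The rule for choosing the genes names no comparison without 3T3-L1 adipocytes, but the genes were picked with results of these arrays known and against the same ES, PMEF and eWAT arrays. The comparisons without 3T3-L1 adipocytes were tested with limma, with p-values adjusted over all 19938 genes. In ES adipocytes all 10 genes rose relative to eWAT, where 28.8% of all genes rose and 20.9% fell. Centring the arrays on reference genes turned these shares into 36.9% and 16.4%. The median difference of the 10 genes was 2.32, against 0.04 over all genes. Aldh1l2 rose most, by 3.65 ± 0.08 on the log2 scale (standard error, 3 arrays a group), or 12.6-fold, with an adjusted p of 1.93e-12. Slc7a5 rose 9.44-fold and Mthfd2 9.0-fold, with log2 differences of 3.24 ± 0.17 and 3.17 ± 0.17. Aldh1l2, Slc7a5 and Mthfd2 had the largest estimates, but the order was not tested. Aldh1l2 and Slc7a5 were among the 3 genes that prompted the list, so nothing is read from their rank here or in PMEF adipocytes. Ddit3 rose by 2.59 ± 0.08, Shmt2 by 2.43 ± 0.10 and Trib3 by 2.21 ± 0.13. The smaller changes were those of Psat1 at 1.70 ± 0.07, Atf4 at 1.35 ± 0.08 and Asns at 0.94 ± 0.06. Atf3 rose least, by 0.65 ± 0.12 (adjusted p = 0.000367), or 1.57-fold.

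In PMEF adipocytes 8 of the 10 genes rose relative to eWAT, 1 fell and 1 was not called, where 24.7% of all genes rose and 21.6% fell. The median difference was 0.68, against 0.05 over all genes. Aldh1l2 again rose most, by 1.94 ± 0.08 or 3.85-fold (adjusted p = 3.95e-10), followed by Slc7a5 at 1.70 ± 0.17 and Mthfd2 at 1.35 ± 0.17. Ddit3 rose by 0.95 ± 0.08, Atf4 by 0.73 ± 0.08, Shmt2 by 0.63 ± 0.10, Trib3 by 0.55 ± 0.13 and Psat1 by 0.50 ± 0.07, and the adjusted p of these 5 was at most 0.00297. Asns differed by 0.06 ± 0.06, with a 95% interval of -0.08 to 0.19 and an adjusted p of 0.496. Atf3 fell by 0.47 on the log2 scale (standard error 0.12, adjusted p = 0.00466). The comparisons of ES and PMEF adipocytes use the same 3 eWAT arrays and are not independent of each other.

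The fall of Atf3 in PMEF adipocytes is set beside the immediate early genes, which are induced within minutes of handling tissue and include relatives of Atf3. Their mean over 11 genes was 6.96 to 6.97 on the PMEF arrays and 7.23, 7.90 and 7.29 on the eWAT arrays. It was 7.56 to 7.60 on the 3T3-L1 arrays and 7.19 to 7.24 on the ES arrays. The means of the cultures thus stood in the order of Atf3 without overlap, but the eWAT arrays did not keep that order. Their early gene means overlapped those of the 3T3-L1 and ES arrays, while their Atf3 values lay below both. Egr1 alone had a mean of 7.70 in ES and 7.85 in PMEF adipocytes, without a call. Relative to eWAT 0 of the 11 rose in PMEF adipocytes, 5 fell and 6 were not called. Over all genes 24.7% rose and 21.6% fell there. The second eWAT array, with the highest early gene mean, also had the highest Atf3 value of its group, 7.33. Fos itself differed by 0.06 ± 0.13 between PMEF adipocytes and eWAT, without a call, while Jun and Egr1 fell by 0.74 and 0.49 on the log2 scale. Without the second eWAT array Atf3 fell by 0.31 on the log2 scale in PMEF adipocytes (adjusted p = 0.0137), and it was 0.81 higher in ES adipocytes than in eWAT. Without the first eWAT array, which had the lowest Atf3 value of its group, the fall in PMEF adipocytes was 0.62 on the log2 scale (adjusted p = 0.000175) and the rise in ES adipocytes 0.51. The part of these early genes in the difference was not tested.

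Between the cultures, all 10 genes rose in ES adipocytes relative to PMEF adipocytes, where 23.6% of all genes rose and 19.0% fell. The differences lay between 0.62 and 1.82, with a median of 1.58 against -0.02 over all genes. Mthfd2 and Shmt2 rose most, by 1.82 ± 0.17 and 1.81 ± 0.10, followed by Aldh1l2 at 1.71 ± 0.08, Trib3 at 1.65 ± 0.13 and Ddit3 at 1.63 ± 0.08. The 3 mitochondrial folate enzymes had the largest estimates, but the order was not tested. The 95% intervals of Mthfd2, 1.44 to 2.20, and of Trib3, 1.37 to 1.93, overlapped. Slc7a5 rose by 1.53 ± 0.17, Psat1 by 1.19 ± 0.07, Atf3 by 1.12 ± 0.12 and Asns by 0.88 ± 0.06. Atf4 rose least, by 0.62 ± 0.08 or 1.54-fold (adjusted p = 1.87e-05), which was the highest adjusted p of the 10. Markers of fibroblasts and progenitors moved the other way, with a mean over 8 genes of 9.55 to 9.64 in ES and 11.42 to 11.46 in PMEF adipocytes, and all 8 fell. The adipocyte markers were higher in ES adipocytes, with 9 of 11 called. The part of this difference in cell makeup was not tested.

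**Figure D2:**
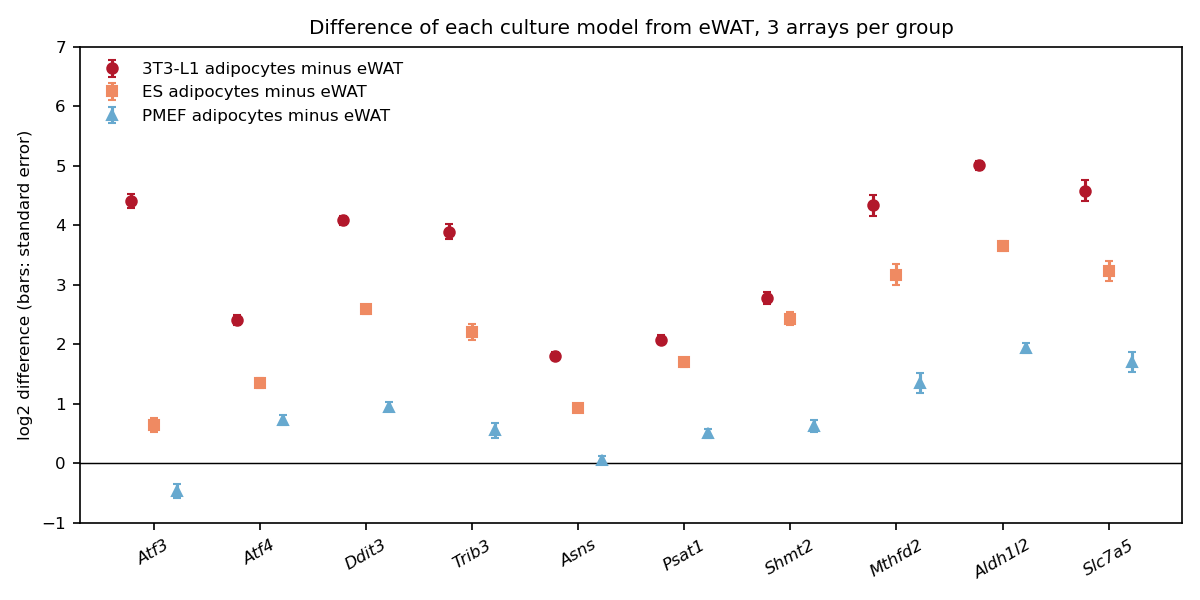
Log2 difference from eWAT of the 10 genes in 3T3-L1, ES and PMEF adipocytes (mean of 3 arrays minus mean of the 3 eWAT arrays, bars for the standard error). The ES values run from 0.65 to 3.65, and the PMEF values from -0.47 for Atf3 to 1.94 for Aldh1l2.

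The other genes of the pathway filled 7 lists with 102 genes, of which 94 were measured, and were examined in the same fit. In ES adipocytes 68 of the 94 rose relative to eWAT and 14 fell, with a median of 0.56. Over all genes 28.8% rose and 20.9% fell there. In PMEF adipocytes 35 rose and 28 fell, with a median of 0.02, where 24.7% of all genes rose and 21.6% fell. In ES relative to PMEF adipocytes 66 rose and 10 fell, where 23.6% of all genes rose and 19.0% fell. In 3T3-L1 adipocytes 73 rose relative to eWAT and 13 fell, where 30.8% of all genes rose and 22.5% fell, or 52.5% and 15.6% with the arrays centred on their medians. In 3T3-L1 relative to PMEF adipocytes 74 rose and 13 fell, where 27.8% of all genes rose and 22.3% fell, or 46.0% and 14.2% with the arrays centred on their medians. Nothing is read from either count for the members. These lists were set up with earlier results of the same arrays known. The shares over all genes given here stand beside the counts of each single list below.

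Genes that control the response came first. Of 9 measured, 8 rose in ES adipocytes relative to eWAT and 1 fell, 4 rose and 1 fell in PMEF adipocytes, and 8 rose in 3T3-L1 adipocytes. Ppp1r15a, which encodes the GADD34 subunit of the phosphatase that ends eIF2 phosphorylation and is itself a target of the pathway, read 9.72, 9.57 and 9.59 in 3T3-L1, 8.18, 8.36 and 8.28 in ES, 6.79, 6.71 and 6.73 in PMEF and 5.98, 6.22 and 5.93 in eWAT. Its groups stood in the order of 9 of the members, Atf3 being the exception. Relative to eWAT it rose by 3.58 ± 0.08, 2.23 ± 0.08 and 0.70 ± 0.08 in 3T3-L1, ES and PMEF adipocytes. Eif2ak3, the kinase PERK that responds to unfolded protein, rose by 0.97, 0.30 and 0.73 in those cultures. Impact, an inhibitor of the amino acid sensing kinase, rose most in PMEF adipocytes, by 1.42 ± 0.07, and by 0.73 and 1.03 in the 3T3-L1 and ES cultures.

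Among 14 other targets of Atf4 and Ddit3, 11 rose and 1 fell relative to eWAT in 3T3-L1 and likewise in ES adipocytes, and 4 rose and 4 fell in PMEF adipocytes. Ero1a, an oxidase of the endoplasmic reticulum that Ddit3 is known to induce, was nearly equal in 2 cultures, at 12.67 to 12.69 in 3T3-L1 and 12.53 to 12.60 in ES adipocytes, against 9.64 to 9.84 in PMEF adipocytes and 8.39 to 8.65 in eWAT. Chac1, which degrades glutathione, read 10.38, 10.39 and 10.40 in 3T3-L1 and 7.96, 7.97 and 7.95 in ES, against 6.62, 6.64 and 6.76 in PMEF adipocytes and 6.22, 6.67 and 6.77 in eWAT, where the last 2 groups overlapped. It rose by 1.40 ± 0.11 in ES adipocytes and differed by 0.12 ± 0.11 in PMEF adipocytes, without a call. Ddit4, an inhibitor of mTORC1, rose in ES adipocytes alone among the 3 comparisons with eWAT, by 1.51 ± 0.12, and it was 1.34 ± 0.12 higher in ES than in PMEF adipocytes and 1.30 ± 0.12 lower in 3T3-L1 than in ES adipocytes. Its difference from eWAT was 0.22 ± 0.12 in 3T3-L1 adipocytes, where centring the arrays on their medians gave 0.43 and a call. Cth, which makes cysteine, rose by 2.29 ± 0.20 in 3T3-L1 and 0.85 ± 0.20 in ES adipocytes and fell by 0.71 on the log2 scale in PMEF adipocytes. Stc2 was the 1 gene of this list that fell in 3T3-L1 adipocytes relative to eWAT, with a difference of -0.67. Its means were 5.81 in 3T3-L1, 8.10 in ES, 6.51 in PMEF and 6.48 in eWAT. Relative to eWAT it rose by 1.62 ± 0.10 in ES adipocytes, and 3T3-L1 minus ES gave -2.29 ± 0.10, the lowest difference of the list.

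The other genes of serine and glycine metabolism are set beside the shares of all genes. Relative to eWAT 28.8% of all genes rose and 20.9% fell in ES adipocytes, and 24.7% and 21.6% in PMEF adipocytes. In 3T3-L1 adipocytes the shares were 30.8% and 22.5%. The ES and PMEF counts of this short list are near or below these shares, and nothing is read from them. Of 9 measured genes of serine and glycine metabolism 1 rose and 2 fell in ES adipocytes relative to eWAT, 2 rose and 3 fell in PMEF adipocytes, and 5 rose and 1 fell in 3T3-L1 adipocytes. Phgdh, the first enzyme of serine synthesis, fell by 0.70 on the log2 scale in PMEF adipocytes and was 0.51 ± 0.14 higher in 3T3-L1 adipocytes. In ES adipocytes its difference from eWAT was -0.36 ± 0.14 (adjusted p = 0.0439), and the call was lost under 9 alternatives, 6 of which left out 1 array (3T3-L1 array 1 or 3, ES array 2 or 3, PMEF array 2 or eWAT array 1), with adjusted p between 0.0512 and 0.183. Psph, the last enzyme of serine synthesis, was 1.58 ± 0.09 higher in 3T3-L1 adipocytes than in eWAT, differed by 0.10 ± 0.09 in ES adipocytes without a call, and fell by 0.33 on the log2 scale in PMEF adipocytes. Shmt1, the cytosolic counterpart of Shmt2, rose by 1.14 ± 0.09 in 3T3-L1, 1.02 ± 0.09 in ES and 0.52 ± 0.09 in PMEF adipocytes.

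The folate enzymes outside the list split into rises and falls. Over all genes 28.8% rose and 20.9% fell relative to eWAT in ES adipocytes, and 24.7% and 21.6% in PMEF adipocytes. In 3T3-L1 adipocytes the shares were 30.8% and 22.5%. Of 14 measured, 7 rose and 5 fell in ES adipocytes relative to eWAT, 6 rose and 5 fell in PMEF adipocytes, and 10 rose and 3 fell in 3T3-L1 adipocytes. Mthfd1l, which releases formate in mitochondria after the step of Mthfd2, rose by 1.98 ± 0.10 in 3T3-L1, by the same 1.98 ± 0.10 in ES and by 0.77 ± 0.10 in PMEF adipocytes. Mthfd2l, the close relative of Mthfd2, rose by 0.60 ± 0.09 in 3T3-L1, 0.43 ± 0.09 in ES and 0.31 ± 0.09 in PMEF adipocytes (adjusted p = 0.0122 in PMEF). The call in PMEF adipocytes was lost without the first PMEF array (0.24) or the second eWAT array (0.25). Mthfd1, the cytosolic enzyme, was 0.60 ± 0.11 higher in 3T3-L1 adipocytes than in eWAT and differed by 0.11 ± 0.11 in ES and by -0.21 ± 0.11 in PMEF adipocytes without a call.

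Aldh1l1, the cytosolic counterpart of Aldh1l2, ran opposite to it. It read 5.81, 5.68 and 5.51 in 3T3-L1, 7.81, 7.84 and 7.79 in ES, 7.71, 7.98 and 7.90 in PMEF and 9.88, 9.76 and 9.70 in eWAT. The eWAT arrays were highest, the 3T3-L1 arrays lowest, and the ES and PMEF arrays overlapped between them. Relative to eWAT it fell by 4.11 on the log2 scale in 3T3-L1, by 1.97 in ES and by 1.92 in PMEF adipocytes, each with a standard error of 0.09. Between ES and PMEF adipocytes, where Aldh1l2 differed by 1.71, Aldh1l1 differed by -0.05 ± 0.09 without a call.

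The amino acid transporters also split. Over all genes 28.8% rose and 20.9% fell relative to eWAT in ES adipocytes, and 24.7% and 21.6% in PMEF adipocytes. In 3T3-L1 adipocytes the shares were 30.8% and 22.5%. Of 16 measured, 11 rose and 5 fell in ES adipocytes relative to eWAT, 9 rose and 5 fell in PMEF adipocytes, and 10 rose and 6 fell in 3T3-L1 adipocytes. Slc7a11, the cystine carrier and an Atf4 target, read 8.36, 8.45 and 8.62 in 3T3-L1, 7.73, 7.49 and 7.51 in ES, 5.75, 5.47 and 5.73 in PMEF and 4.24, 4.33 and 4.21 in eWAT, the order of Slc7a5. It rose by 3.32 ± 0.10 in ES and 1.39 ± 0.10 in PMEF adipocytes. Slc6a9, a glycine transporter, rose by 3.24 ± 0.11 in 3T3-L1, 1.43 ± 0.11 in ES and 0.84 ± 0.11 in PMEF adipocytes. Slc38a4 had means of 7.03 in 3T3-L1, 7.44 in ES, 7.12 in PMEF and 4.70 in eWAT. Its rise of 2.42 ± 0.08 in PMEF adipocytes relative to eWAT was the largest of the list there. The eWAT arrays of Slc7a11 and Slc38a4 lay below 5.36, the limit of the dimmest genes given above. Slc38a1 was lowest in 3T3-L1 adipocytes, with means of 4.86 in 3T3-L1, 7.84 in ES, 6.69 in PMEF and 5.71 in eWAT. Slc3a2, the heavy chain that Slc7a5 needs at the membrane, had smaller differences from eWAT than its partner, at 1.34 ± 0.07 in 3T3-L1, 0.25 ± 0.07 in ES and -0.14 ± 0.07 in PMEF adipocytes, the last without a call. That last value became -0.20 and was called without the third eWAT array (adjusted p = 0.0274). It was also called with quantile normalization, at -0.22 (adjusted p = 0.0133), and with a trended and robust variance, at -0.14 (adjusted p = 0.0354).

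Among the transporters that fell were Slc7a8, Slc43a1 and Slc1a5. Slc7a8, the light chain of a related exchanger, read 5.52, 5.27 and 5.34 in 3T3-L1, 6.45, 6.52 and 6.62 in ES, 7.28, 7.05 and 6.97 in PMEF and 7.75, 8.34 and 8.15 in eWAT. The groups did not overlap and stood in the reverse of the order of Slc7a5. Relative to eWAT it fell by 2.70 on the log2 scale in 3T3-L1, 1.55 in ES and 0.98 in PMEF adipocytes, each with a standard error of 0.13. Slc43a1, a carrier of branched-chain amino acids, fell by 3.00 in 3T3-L1, 1.75 in ES and 1.71 in PMEF adipocytes. Slc1a5, a glutamine exchanger, fell by 0.60, 1.25 and 0.64 on the log2 scale in the same cultures. Slc7a6, which also carries large neutral amino acids and is named here after its values were seen, differed the other way, by 0.51 ± 0.07 in 3T3-L1 and 1.0 ± 0.07 in ES adipocytes, and by 0.09 ± 0.07 in PMEF adipocytes without a call.

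**Figure D3:**
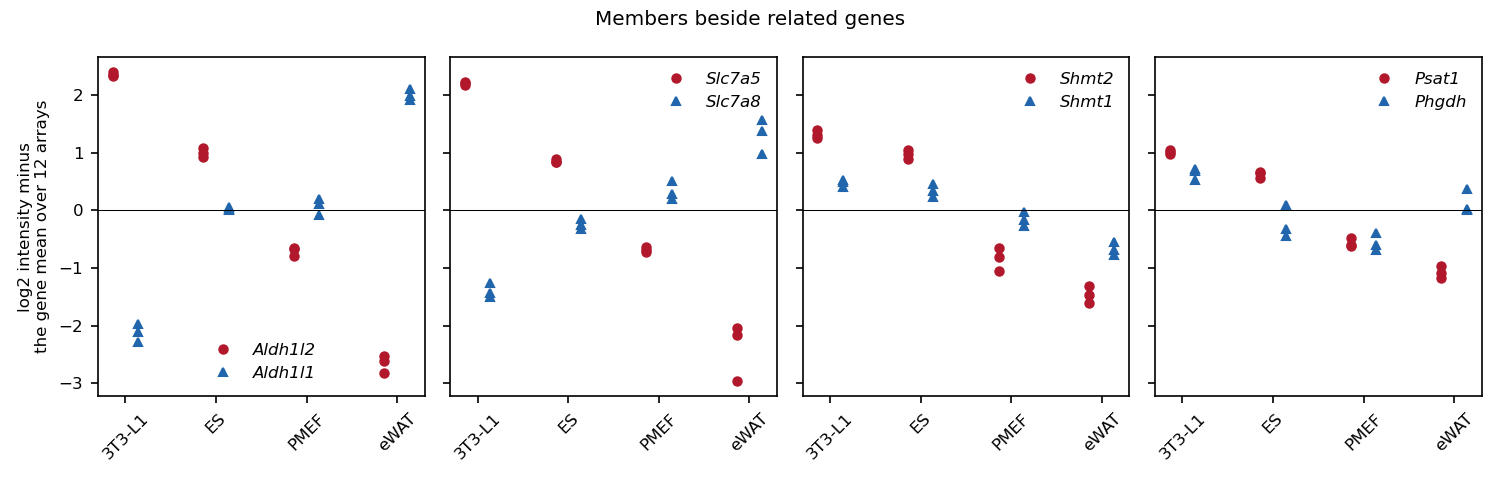
Log2 intensity minus the mean of the gene over 12 arrays for 4 members (circles) and a related gene each (triangles), with the groups 3T3-L1, ES, PMEF and eWAT from left to right and 1 point an array. Aldh1l1 and Slc7a8 run opposite to Aldh1l2 and Slc7a5. The means of Shmt1 descend with those of Shmt2 in smaller steps, but the 3T3-L1 and ES arrays of Shmt1 overlap. Phgdh is higher in eWAT than in PMEF adipocytes where Psat1 is lower.

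The aminoacyl-tRNA synthetases of the cytosol, many of which are known Atf4 targets, came next. In ES adipocytes 17 of 18 rose relative to eWAT, with a median of 0.73, and in PMEF adipocytes 8 rose and 2 fell, with a median of 0.07. In ES relative to PMEF adipocytes 17 of 18 rose, and so did 17 of 18 in 3T3-L1 adipocytes relative to eWAT. Sars, the enzyme for serine, rose by 1.85 ± 0.06, 1.15 ± 0.06 and 0.44 ± 0.06 in 3T3-L1, ES and PMEF adipocytes, and Gars, the enzyme for glycine, by 1.84 ± 0.06, 1.04 ± 0.06 and 0.60 ± 0.06. Wars, the enzyme for tryptophan, which interferon also induces, rose by 0.70 ± 0.07 in ES and fell by 0.35 on the log2 scale in PMEF adipocytes.

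The chaperones and other genes of endoplasmic reticulum stress, which answer mainly to Atf6 and Xbp1, were examined last. Their mean over 14 genes was 10.43 to 10.49 in 3T3-L1, 10.62 to 10.79 in ES, 9.54 to 9.58 in PMEF adipocytes and 9.66 to 9.91 in eWAT. The groups did not overlap on the deposited scale, with ES adipocytes highest, but with the arrays centred on their medians the 3T3-L1 arrays, at 10.60 to 10.64, lay within the range of the ES arrays, 10.56 to 10.76. In ES adipocytes 13 of 14 rose relative to eWAT, with a median of 0.96, while in PMEF adipocytes 2 rose and 8 fell, with a median of -0.27. All 14 rose in ES relative to PMEF adipocytes. Relative to ES adipocytes 2 rose and 8 fell in 3T3-L1 adipocytes, where 23.0% of all genes rose and 20.4% fell. With the arrays centred on reference genes these shares were 16.3% and 28.7%, and with the arrays centred on their medians 47.2% and 13.1%. The number called in that comparison dropped to 6 without the first or second 3T3-L1 array or the third ES array. Sdf2l1, a cofactor of the chaperone BiP, read 9.45, 9.47 and 9.70 in 3T3-L1, 10.48, 9.99 and 10.51 in ES, 7.30, 7.59 and 7.32 in PMEF and 7.61, 8.44 and 8.47 in eWAT, so that ES rather than 3T3-L1 adipocytes were highest. Hspa5, which encodes BiP, rose by 0.98 ± 0.07 in 3T3-L1 and 0.82 ± 0.07 in ES adipocytes and fell by 0.45 on the log2 scale in PMEF adipocytes. Xbp1 fell by 0.95 on the log2 scale in PMEF adipocytes and by 0.52 in 3T3-L1 adipocytes, and differed by -0.10 ± 0.08 in ES adipocytes without a call.

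**Figure D4:**
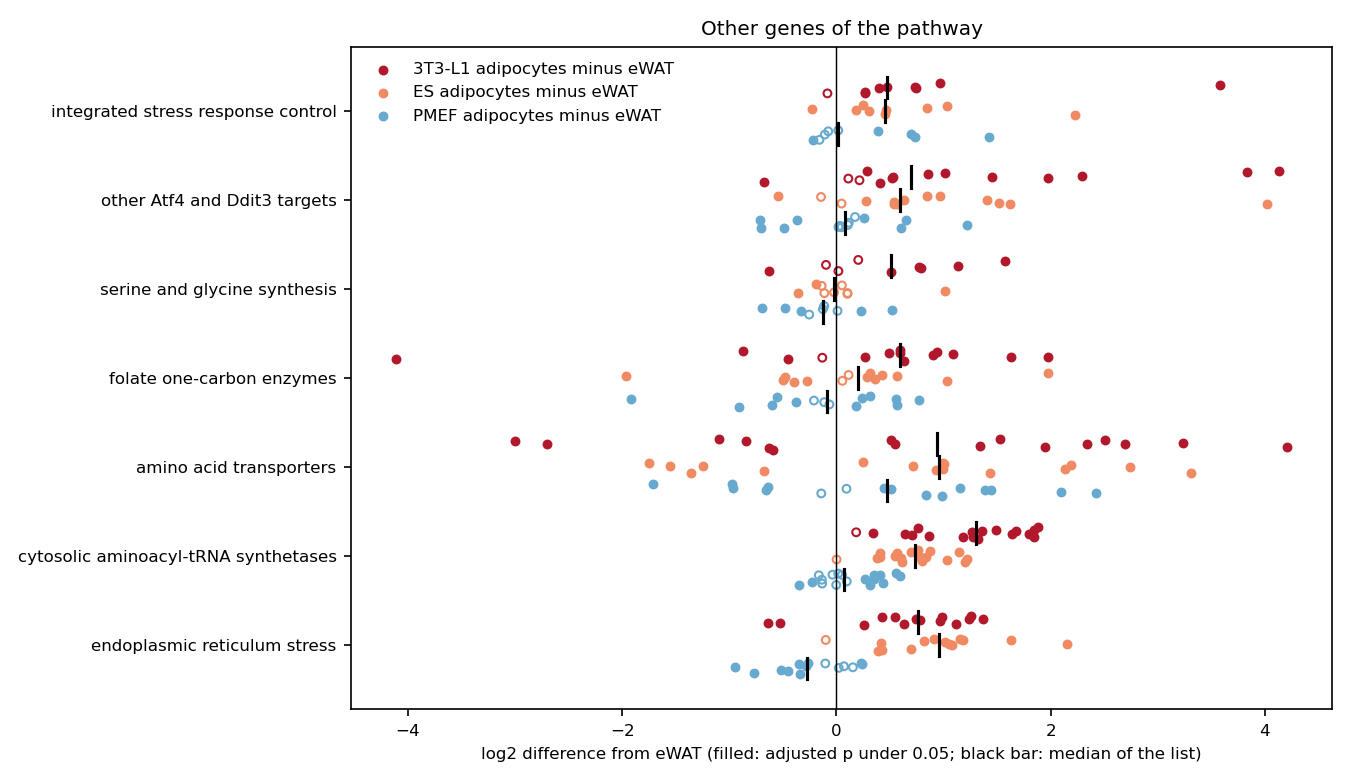
Log2 difference from eWAT (horizontal axis) of the measured genes of 7 lists in 3T3-L1, ES and PMEF adipocytes, with 1 point a gene, filled where the adjusted p was under 0.05, and a black bar at the median. The tRNA synthetases lie right of 0 in 3T3-L1 and ES adipocytes, and the median of the endoplasmic reticulum list is 0.96 in ES and -0.27 in PMEF adipocytes.

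The genes with the most similar profiles were found as those with the smallest root mean square difference of centred log2 values over the 12 arrays. For Aldh1l2 they were Cbr3, a carbonyl reductase, at 0.27, Slc7a11 at 0.32 and Dhrs9, a retinol dehydrogenase, at 0.34. For Slc7a5 the same 3 genes were nearest, with Slc7a11 at 0.30, Cbr3 at 0.40 and Dhrs9 at 0.41. Cbr3 read 9.80 to 9.96 in 3T3-L1, 8.52 to 8.91 in ES, 6.65 to 6.74 in PMEF and 4.88 to 5.57 in eWAT. For Atf3 the nearest were Acox2, a peroxisomal oxidase of branched substrates, at 0.42, Cwc22, a splicing factor, at 0.42, and Steap1, a metalloreductase, at 0.53. Cwc22 read 11.29 to 11.35 in 3T3-L1 and 7.81 to 7.87 in ES, against 7.33 to 7.61 in PMEF adipocytes and 7.60 to 7.75 in eWAT, a step between 3T3-L1 and the rest like that of Atf3.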

How the data were processed

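The deposited values are log2 intensities of 35556 probe sets on each of 12 arrays, normalized by the authors. How they were normalized, with which software and on which genome build is not given in the sources used here. Per the labels' protocols, total RNA was taken with TRIzol, and 300 ng of it went into biotin-labelled cDNA (Ambion WT Expression kit). No detection calls were used, and precision is limited by the number of arrays.

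Probe sets with 1 gene symbol (21789, against 1621 with several and 12146 with none) were used, with symbols updated by Entrez ID for 21698. For the 999 genes with several probe sets the one brightest on average was kept, which left 19938 genes and no filter. The 4 groups were modelled together with limma 3.58.1 (R 4.3.3), so that all 12 arrays set the spread (8 residual and 4.88 prior degrees of freedom). Calls needed an adjusted p (Benjamini-Hochberg, all genes) under 0.05, ± is the moderated standard error, and rose or fell refers to the first group named and to a called difference. On simulated data for ES minus eWAT (19938 genes), 58% of 100 genes shifted by 0.5 and 94% of 100 shifted by 1 were recovered. There were 5 false calls among 19738. Only the shifted genes differed in the simulation, while 9911 genes were called in the real comparison, so that these rates do not carry over to it.

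The members and the gene lists were chosen with earlier results of these data known, and so was the rule for naming genes. It took all members, in each pathway list and comparison the top 3 rising and top 3 falling genes among those called, the 8 related enzymes and carriers Shmt1, Mthfd1, Mthfd1l, Mthfd2l, Aldh1l1, Phgdh, Psph and Slc3a2, the markers Adipoq, Plin1, Adgre1, Cdh5, Pdgfra, Upk3b and Pou5f1 with the early genes Fos, Jun and Egr1, and the 3 nearest profiles of Atf3, Aldh1l2 and Slc7a5. Not every gene that this rule takes is printed above. Left out are the markers Plin1, Adgre1, Cdh5, Upk3b and Pou5f1 and several of the top 3 genes of the lists, such as Slc1a4 and Slc7a2. The 22 alternative settings were other scalings, filters, probe set rules and variance models, the replicate number as a block, and leaving out each of the 12 arrays in turn.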

Additional observations from a re-analysis of the deposited data

Results flagged for a closer look

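Relative to eWAT, 13 genes of the members and pathway lists rose in ES adipocytes and fell in PMEF adipocytes, which is 12.5% of 104 genes, against 2.31% of all genes. Their difference between the 2 cultures is the sum of both changes, so that its passing the test follows from the choice and adds nothing. Both comparisons use the same eWAT arrays. Atf3 was the single member, at 1.12 in ES minus PMEF adipocytes. Of the stress response and its targets, Ppp1r15b differed by 1.07, Cebpb by 0.77 and Cth by 1.56. Among the tRNA synthetases, Farsb differed by 0.64 and Wars by 1.05. The other 7 belong to the endoplasmic reticulum stress list, with Sdf2l1 at 2.92, Hyou1 at 1.43, Herpud1 at 1.29, Hspa5 at 1.27, Dnajc3 at 1.05, Edem1 at 0.75 and Atf6 at 0.65. Edem1 and Dnajc3 are named here because of their values.

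The fall in PMEF adipocytes lost its call under some alternatives for 3 of them. Ppp1r15b stood at -0.22, and its call was lost with the mean of its probe sets (-0.085, adjusted p = 0.303), with arrays centred on reference genes (-0.16), with the arrays of PMEF and eWAT alone (adjusted p = 0.0724), and without the second PMEF array (-0.17) or the third eWAT array (-0.19). Farsb stood at -0.23, and its call was lost with arrays centred on reference genes (-0.17) and without the second PMEF array (-0.21). Herpud1 stood at -0.28, and its call was lost with the arrays of PMEF and eWAT alone (adjusted p = 0.057) and without the third PMEF array (-0.25), the second eWAT array (-0.25) or the third eWAT array (-0.21).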

How the results depend on the processing

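In the comparisons without 3T3-L1 adipocytes, every member kept its direction and its call under all 22 alternatives, with 10 called in ES minus eWAT, 9 in PMEF minus eWAT and 10 in ES minus PMEF. The median difference of the members in 3T3-L1 adipocytes moved to 4.20 against eWAT, 1.46 against ES and 3.15 against PMEF adipocytes with the arrays centred on their medians, and to 1.14 against ES adipocytes with centring on reference genes. Leaving out 1 array gave 3.94 to 4.04, 1.21 to 1.32 and 2.86 to 2.97. Centring on medians shifted the median of all genes by 0.21 in 3T3-L1 minus eWAT. The share of higher genes among called genes was then 77.1% against 57.8% as deposited, 78.3% against 52.9% in 3T3-L1 minus ES and 76.4% against 55.4% in 3T3-L1 minus PMEF, and with centring on reference genes 36.2% and 45.4% in these last 2 and 69.2% against 58.0% in ES minus eWAT. Uncalled differences that changed sign were Aldh1l1 in ES minus PMEF, which ran from -0.13 to 0.0087 when 1 array was left out (the highest without the second PMEF array), Chac1 in PMEF minus eWAT, which ran from -0.051 (without the first eWAT array) to 0.22, and Slc43a1 in ES minus PMEF at 0.0023 on reference genes. The number called among serine and glycine genes in ES minus eWAT, 3 as reported, was 1 under 5 alternatives.

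The labels state no pairing of the samples by replicate number. Correlations of same-numbered deviations were -0.14 to 0.11 and exceeded 0.1 in 1 of 18 pairs. Low correlations of this kind do not exclude a shared batch. With the replicate number as a block, 10, 9 and 10 members were called, and 80 of the 94 other pathway genes in ES minus eWAT.

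Without detection calls, the size of differences that reach dim values is uncertain, however small their standard errors. Examples are Aldh1l2, Slc7a11 and Slc38a4 in eWAT.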
